A study of Mus musculus with 10 samples.

Results

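Endothelial cells and the progenitors that give rise to them are recognised by a set of surface receptors and by 3 transcription factors of the SoxF subgroup. The 10 genes described here were chosen by name. They are the angiopoietin receptor gene Tek and its relative Tie1, the endoglin gene Eng and its partner receptor gene Acvrl1, the apelin receptor gene Aplnr and its ligand gene Apln, the adrenomedullin co-receptor gene Ramp2, and Sox7, Sox17 and Sox18. All 10 were found among the 21868 genes of the count table, and all 10 had enough reads to be tested.

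The tested cells were mouse Ldb1-/- (KO) cells, set against Ldb1+/+ (WT) cells, all sorted for Flk1. Flk1 is the VEGF receptor encoded by Kdr, which marks early progenitors of blood and endothelium, and Ldb1 is an adaptor that joins LIM-domain and other factors into complexes on DNA. Both genotypes were embryonic stem cells differentiated as embryoid bodies without added leukaemia inhibitory factor, and the labels call the sorted cells hemangioblast equivalents. The labels give 4 RNA-seq libraries per genotype. They do not give the day of the RNA libraries, the number of clones per genotype or the knockout allele, so loss of Ldb1 and any other difference between the 2 sets of cells cannot be told apart.

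Within each genotype the counts of libraries 1 and 2 agreed nearly to within sampling noise, and so did those of libraries 3 and 4. Each pair was therefore summed to 1 sample, called KO A, KO B, WT A and WT B (A from libraries 1 and 2, B from 3 and 4), with 22674679 to 26775787 reads each. The labels do not say whether A and B are separate cultures, and p-values then cover only the spread between these samples, which may be technical. Ldb1 itself stood at 96.1 and 80.1 counts per 1000000 (CPM) in KO A and KO B, against 105 and 113 CPM in WT A and WT B (log2 fold change -0.31, SE 0.15, edgeR adjusted p = 0.41). Reads outside a deleted part would still be counted, so this checks nothing about the allele.

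Tek encodes Tie2, the receptor tyrosine kinase that binds angiopoietins, and Tie1 forms complexes with it. Endoglin is a co-receptor that presents BMP9 and BMP10 to the kinase Alk1, the product of Acvrl1. The apelin receptor is a G-protein-coupled receptor of early mesoderm and of growing vessels, and Ramp2 turns the calcitonin-receptor-like receptor into an adrenomedullin receptor. Sox7, Sox17 and Sox18 are related DNA-binding factors that act partly in each other's place during vessel formation, and Sox17 and Sox7 are also made in endoderm.

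RefSeq promoter windows, from 250 bases before to 50 bases after the annotated start in build GRCm38.p6, were at hand for 4 of the 10 genes: Tek, Tie1, Eng and Apln. The windows of Tek and Tie1 are shown because their profiles were the most alike among the Tie and Alk1 receptors, and that of Eng because its difference between genotypes was the least variable. Capitals mark letters searched on both strands: GGAAG, the core bound by ETS factors; AGATAA, bound by GATA factors; CAGNTG, an E-box form; and AACAAT, a Sox form.
Tek: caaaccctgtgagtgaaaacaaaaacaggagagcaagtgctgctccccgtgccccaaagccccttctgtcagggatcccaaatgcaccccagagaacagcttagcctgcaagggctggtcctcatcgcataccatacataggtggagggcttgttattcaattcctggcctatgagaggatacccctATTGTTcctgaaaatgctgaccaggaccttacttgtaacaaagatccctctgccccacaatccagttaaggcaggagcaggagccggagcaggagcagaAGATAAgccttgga
Tie1: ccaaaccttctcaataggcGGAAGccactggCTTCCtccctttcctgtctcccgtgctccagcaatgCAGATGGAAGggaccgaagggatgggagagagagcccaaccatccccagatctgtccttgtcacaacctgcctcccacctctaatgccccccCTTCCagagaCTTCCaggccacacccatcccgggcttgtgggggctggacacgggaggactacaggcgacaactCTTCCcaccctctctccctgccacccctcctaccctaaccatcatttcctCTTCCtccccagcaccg
Eng: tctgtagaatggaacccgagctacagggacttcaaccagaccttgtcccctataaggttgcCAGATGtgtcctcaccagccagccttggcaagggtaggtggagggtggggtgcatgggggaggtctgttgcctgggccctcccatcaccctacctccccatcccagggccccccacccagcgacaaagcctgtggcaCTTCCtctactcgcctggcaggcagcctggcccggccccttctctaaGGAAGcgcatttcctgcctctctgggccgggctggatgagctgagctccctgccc
The Tek window lies on the plus strand at chr4:94739039-94739338, that of Tie1 on the minus strand at chr4:118489800-118490099, and that of Eng on the plus strand at chr2:32646345-32646644. The Tie1 window holds 7 matches to GGAAG and 1 to CAGNTG, which shares a base with one of the 7. The Eng window holds 2 matches to GGAAG and 1 to CAGNTG. The Tek window has neither, but 1 match to AGATAA and 1 to AACAAT. Among all 32851 promoter windows of this length, 71.4% hold GGAAG, 51.4% CAGNTG, 11.2% AGATAA and 10.7% AACAAT, so most of these matches are common ones. They are matches of letters and not measured binding sites.

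Transcripts of all 10 genes were present in every library, so the cells of both genotypes carried endothelial receptor and SoxF RNA. Levels were compared between genes per transcript length, as CPM per 1000 bases of the transcript length that the authors give. On that scale Ramp2 was the highest in both genotypes, at 36.4 ± 14.8 in KO and 59.9 ± 4.51 in WT (SD, n = 2 each). Apln, the ligand gene, was the lowest, at 0.701 ± 0.308 in KO and 1.33 ± 0.209 in WT. The order in KO after Ramp2 was Tie1, Eng, Sox18, Tek, Sox7, Aplnr, Acvrl1 and Sox17. All neighbours in that run overlapped between samples, whereas those of Apln lay below it. The lowest Ramp2 value, 26.0, was next to the highest Tie1 value, 25.9. In WT the order was Ramp2, Eng, Sox18, Tie1, Aplnr, Sox7, Tek, Acvrl1, Sox17 and Apln. There the samples of Ramp2, Sox17 and Apln overlapped no neighbour, those of Sox7 and Tek did not overlap each other, and the rest overlapped.

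**Figure D1:**
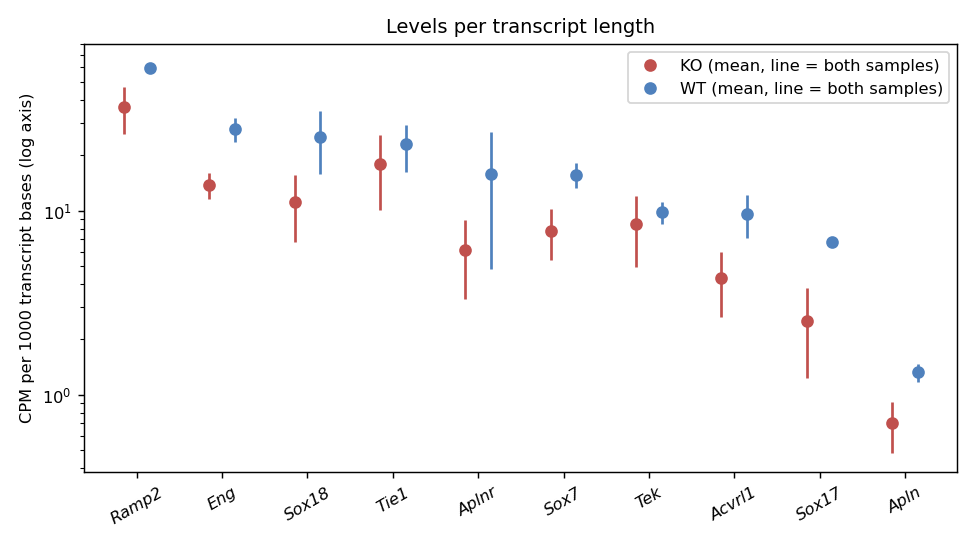
Mean CPM per 1000 transcript bases (log axis) of the 10 genes in KO (red) and WT (blue), with a line joining the values of samples A and B. Ramp2 is the highest and Apln the lowest in both genotypes, and the KO and WT lines of Tek and of Tie1 overlap.

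The comparison of KO with WT asked whether these genes depend on Ldb1 in Flk1-sorted cells. By edgeR's quasi-likelihood test 0 of the 10 passed an adjusted p of 0.05, against 0.185% of the 16785 genes tested (21 lower, or 0.125%, and 10 higher, or 19 lower and 3 higher with each chromosome's median difference removed). DESeq2 called 1 member lower, Eng, against 3.66% of all genes, and limma-voom called 0, against 0.0179%. Taking the 8 libraries as separate replicates, although pairs of them are nearly identical, called 6 of the 10 lower, against 12.1% of all genes. All 10 members had a log2 fold change below 0, where 51.3% of all genes did, and their median was -1.01 against -0.01 for all genes. With no adjustment, Eng and Sox7 had an edgeR p under 0.05, both lower, against 7.86% of all genes lower in KO and 7.61% higher. For 7 of the 10, both KO samples lay below both WT samples, which held for 22.4% of all genes. An exact permutation test of 1 gene with 2 samples per genotype has a smallest p of 0.333, and all p-values here therefore come from fits across all genes. In sorted bulk cells, fewer cells of a type and less RNA per cell cannot be told apart.

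**Figure D2:**
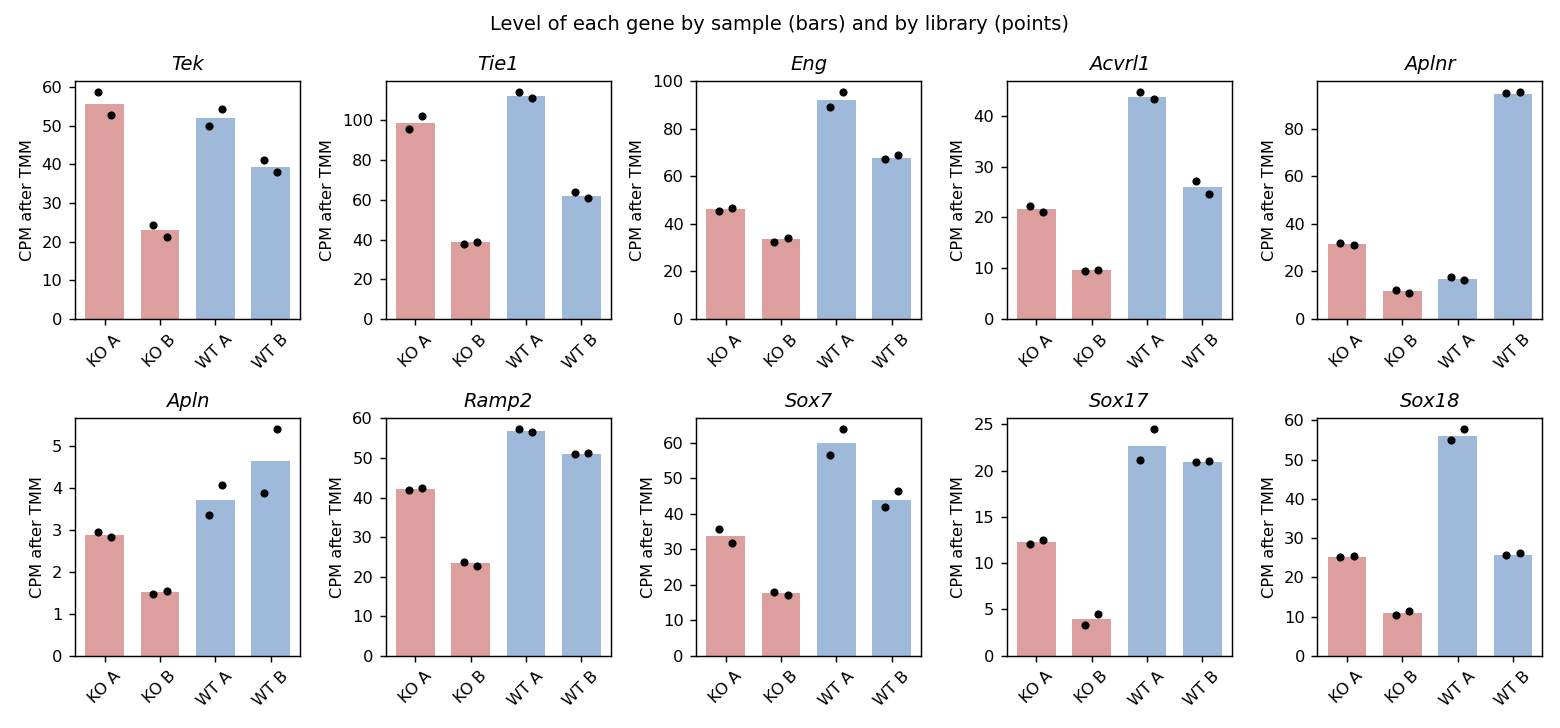
CPM after TMM scaling of each gene in KO samples A and B (red bars) and WT samples A and B (blue bars), with the 2 libraries of each sample as points. KO sample B is the lowest bar for all 10 genes, and the Aplnr bar of WT sample B is far above the other 3.

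The Tie receptors differed little between the genotypes and more between samples of one genotype. Tek stood at 55.6 and 22.9 CPM in KO A and KO B, against 52.0 and 39.3 CPM in WT A and WT B. The KO samples enclosed the WT samples, so the groups overlapped, with a log2 fold change of -0.22 (SE 0.46, 95% interval -1.44 to 1.01, edgeR adjusted p = 0.899). Tie1 stood at 98.5 and 38.5 CPM in KO and at 112 and 62.0 CPM in WT, again overlapping (log2 fold change -0.34, SE 0.56, 95% interval -1.88 to 1.19, adjusted p = 0.861). Both intervals are wide enough to hold a change of over 2-fold downwards or upwards. Their direction rested on single samples: without KO sample B the values were 0.29 for Tek and 0.18 for Tie1, and without WT sample A that of Tie1 was 0.14. The ratio of Tie1 to Tek per transcript length was 2.17 and 2.06 in KO and 2.64 and 1.93 in WT, so the pair kept about the same proportion in the 4 samples while their levels moved.

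Eng showed the steadiest difference of the 10 genes. It stood at 46.1 and 33.5 CPM in KO A and KO B, against 91.9 and 67.9 CPM in WT A and WT B. Both KO samples were below both WT samples, 2.01-fold lower on average (log2 fold change -1.01, SE 0.23, 95% interval -1.59 to -0.43). Its edgeR adjusted p was 0.141, and by DESeq2 it was 0.00483. Over 23 alternatives it ranged from 5.11e-06, in a fit that takes the 8 libraries as separate with a replicate block, to 0.769. It passed edgeR without WT sample A (adjusted p = 0.0345, where 4.47% of all genes were called lower) and without WT sample B (0.00316, where 5.75% were), whereas leaving out KO A or KO B gave 0.39 or 0.769. The gene model of Eng overlaps that of Fpgs, a folate enzyme gene, and since it is not stated whether counting used strand, their reads could be mixed. Fpgs stood at 40.2 and 39.7 CPM in KO and at 59.2 and 43.1 CPM in WT (log2 fold change -0.36, SE 0.19).

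Acvrl1, the kinase partner of endoglin, was lower in KO by a similar size with a wider spread. Its levels were 21.6 and 9.64 CPM in KO and 43.7 and 25.9 CPM in WT, without overlap (log2 fold change -1.15, SE 0.48, 95% interval -2.44 to 0.13, adjusted p = 0.37). Without KO sample B its log2 fold change was -0.685, without KO sample A it was -1.85 and without WT sample A -0.73. The ratio of Eng to Acvrl1 per transcript length was 2.68 and 4.37 in KO and 2.64 and 3.31 in WT, which overlapped. Relative to Eng, Tek was higher in both KO samples, at 0.747 and 0.423, than in both WT samples, at 0.35 and 0.358. The ratio of Tie1 to Eng overlapped, at 1.62 and 0.871 in KO and 0.922 and 0.692 in WT. Neither ratio was tested beyond the order of its 4 values, and no share of gene pairs was taken.

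Aplnr departed from most of the other genes between the WT samples, while its KO sample B was the lowest, as for all 10 genes. It stood at 31.5 and 11.7 CPM in KO A and KO B, against 17.0 and 94.7 CPM in WT A and WT B. WT sample B was far above the other 3 samples and WT sample A lay between the KO samples (log2 fold change -1.37, SE 0.98, 95% interval -4.05 to 1.30, adjusted p = 0.617). Without WT sample B the direction turned, to 0.35, and without KO sample A, KO sample B or WT sample A the value was -2.25, -0.83 or -2.14. Some genes of other lineages, named after their values were seen, also had their highest value in WT sample B. The endoderm and heart factor gene Gata4 stood at 16 and 8.39 CPM in KO and at 9.47 and 89.8 CPM in WT, and its relative Gata6 at 9.24 and 6.67 CPM in KO and at 6.06 and 40.9 CPM in WT. The atrial myosin gene Myl7 stood at 4.49 and 1.44 CPM in KO and at 4.31 and 49.9 CPM in WT, and Cer1, made in endoderm, at 9.98 and 1.48 CPM in KO and at 4.35 and 20.5 CPM in WT. The other tested genes of the endoderm list were divided. Cxcr4, Foxa2, Hnf4a, Gsc and Ttr were also highest in WT sample B. Dab2, Sparc and Epcam were highest in KO sample B, Cubn, Lama1 and Amn in WT sample A, and Foxa1 and Apoa1 in KO sample A. Other cardiac genes listed did not show such a rise. Actc1 stood at 56.5 and 76.7 CPM in KO and at 56.0 and 66.7 CPM in WT, and Tnnt2 was also highest in KO sample B. Tbx5 (5.43 CPM) and Nkx2-5 (0.453 CPM) were highest in WT sample B by little. The part of these lineages in the Aplnr value was not tested. Apln stood at 2.89 and 1.52 CPM in KO and at 3.71 and 4.64 CPM in WT, from 39 to 123 reads per sample. Its KO samples were both below its WT samples (log2 fold change -0.92, SE 0.40, 95% interval -1.92 to 0.08, adjusted p = 0.36), and without KO sample B the value was -0.53 and without KO sample A -1.45. Apela, the other apelin receptor ligand gene, had 8 and 5 reads in KO and 7 and 13 reads in WT, too few to test. The receptor exceeded Apln in every sample per transcript length, by 9.70 and 6.82 times in KO and 4.07 and 18.2 times in WT.

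Ramp2 stood at 42.2 and 23.4 CPM in KO and at 56.7 and 51.0 CPM in WT, without overlap (log2 fold change -0.72, SE 0.30, 95% interval -1.49 to 0.05, adjusted p = 0.356). It lies on chromosome 11, whose genes as a whole had a median of -0.47 in KO. With each chromosome's median removed its value was -0.25, and without KO sample B it was -0.35 and without KO sample A -1.20. Calcrl, the receptor with which Ramp2 pairs, stood at 26.7 and 13.6 CPM in KO and at 40.5 and 30.5 CPM in WT (log2 fold change -0.82, SE 0.36, adjusted p = 0.387). Both parts of the adrenomedullin receptor had their lowest value in KO sample B. So did all 10 genes, 20 of 21 other endothelial genes listed and 25.4% of all genes. Ramp3, named after its values were seen, was lowest in WT sample B, at 5.66 and 5.03 CPM in KO and 7.08 and 4.83 CPM in WT. The adrenomedullin gene Adm, also named after its values were seen, lay higher in KO, at 13.9 and 19.9 CPM in KO and 12.5 and 8.42 CPM in WT (log2 fold change 0.69, SE 0.29, edgeR adjusted p = 0.348).

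The 3 SoxF genes were lower in both KO samples than in both WT samples, and none passed the edgeR test. The same order held for 11 of 21 other endothelial genes listed (52.4%) and for 22.4% of all genes, so it is not particular to SoxF. Sox7 stood at 33.7 and 17.7 CPM in KO and at 59.9 and 43.9 CPM in WT (log2 fold change -1.01, SE 0.36, 95% interval -1.94 to -0.09, adjusted p = 0.282). Sox17 stood at 12.3 and 3.98 CPM in KO and at 22.7 and 20.9 CPM in WT (log2 fold change -1.43, SE 0.55, 95% interval -2.90 to 0.05, adjusted p = 0.336). It had the most negative log2 fold change of the 10 genes, and its WT samples were close together while its KO samples differed about as much as the genotypes did. Sox18 stood at 25.2 and 11 CPM in KO and at 56.1 and 25.8 CPM in WT (log2 fold change -1.18, SE 0.58, 95% interval -2.75 to 0.39, adjusted p = 0.45). KO sample A and WT sample B of Sox18 were almost level. Leaving out 1 sample moved these values, to -0.62 without KO sample B and -1.54 without KO sample A for Sox7. The same omissions gave -0.83 and -2.45 for Sox17 and -0.70 and -1.89 for Sox18, and without WT sample A the value of Sox18 was -0.52.

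Per transcript length, Sox18 supplied the largest share of SoxF RNA in all 4 samples, 52.6% and 50.6% in KO and 57.9% and 44.7% in WT. Sox7 supplied 34.6% and 40.2% in KO and 30.3% and 37.3% in WT. Sox17 supplied the rest, 12.8% and 9.18% in KO and 11.7% and 18% in WT. The shares of each gene overlapped between the genotypes. The ratio of Sox17 to Sox7 was lower in both KO samples, at 0.37 and 0.229, than in both WT samples, at 0.386 and 0.483. The ratios of Sox18 to Sox7 and of Sox17 to Sox18 overlapped. These ratios were not tested beyond the order of their 4 values.

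**Figure D3:**
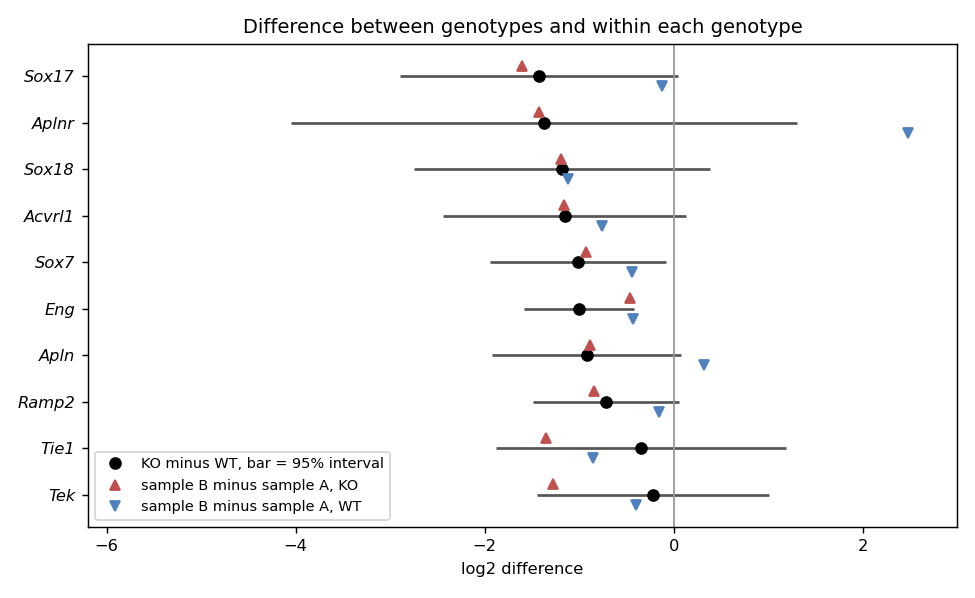
Log2 difference between KO and WT for each gene (black, with its 95% interval from edgeR), and log2 difference of sample B minus sample A within KO (red) and within WT (blue). The intervals of Eng and Sox7 alone lie below 0, and for 7 genes the red triangle lies farther from 0 than the black point.

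Differences between the KO samples were about as large as those between the genotypes, while those between the WT samples were mostly smaller. KO sample B was the lowest of the 4 samples for all 10 genes, against 25.4% of all genes tested. The median log2 difference of sample B minus sample A was -1.18 over the 10 genes in KO, against 0.03 over all genes. In WT it was -0.42, against 0.00 over all genes, and 8 of the 10 genes were lower in B than in A, the exceptions being Apln and Aplnr. For 7 of the 10 genes the difference within KO was larger in size than the difference between KO and WT, Eng, Sox7 and Apln being the exceptions. Within WT this held for Aplnr, Tie1 and Tek. Neither count was taken over all genes.

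KO sample B was also the lowest sample for 20 of 21 other endothelial genes listed. By edgeR 0 of the 21 passed. With no adjustment (edgeR p under 0.05) 6 were lower and 0 higher, against 7.86% and 7.61% of all genes. DESeq2 called 3 lower, against 3.66% of all genes, and limma-voom 0. The 3 were Vwf, Erg and Fli1, named after their values were seen, and not Pecam1 or Kdr. The median log2 fold change of the 21 genes was -0.63, and 19 lay below 0, against 51.3% of all genes. The 2 best-known adhesion genes among them went apart. Pecam1 stood at 69.9 and 39.8 CPM in KO and at 317 and 131 CPM in WT (log2 fold change -2.03, SE 0.55, adjusted p = 0.215), and Cdh5, which encodes VE-cadherin, at 181 and 62.7 CPM in KO and at 151 and 84.3 CPM in WT (0.05, SE 0.61). Kdr, which encodes the sort marker itself, stood at 236 and 78.6 CPM in KO and at 440 and 605 CPM in WT (-1.73, SE 0.59), so the cells labelled as sorted for Flk1 differed in its RNA by up to several-fold. What part this had in the values of the 10 genes was not tested.

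How the 10 genes stood relative to endothelial content depended on the gene taken to measure it. Relative to Cdh5 in the same sample, 8 of the 10 were lower in both KO samples than in both WT samples, against 3.68% of all genes, Tek and Aplnr being the exceptions. The median difference of KO minus WT was then -0.95 on the log2 scale, against 0.08 over all genes. Cdh5 itself differed within each genotype, at 181 and 62.7 CPM in KO and 151 and 84.3 CPM in WT. Without division by it, both KO samples lay below both WT samples for 7 of the 10 and for 22.4% of all genes. The 3.68% therefore holds for this scaling alone. No such share was taken over the other endothelial genes, so the 8 are not set apart from them. Relative to Pecam1, 8 of the 10 were higher in both KO samples than in both WT samples, but so were 93.3% of all genes, Pecam1 itself standing at -2.03. The median difference was 0.91 over the 10 genes, against 1.95 over all genes. Cdh5 lies on chromosome 8, whose median log2 fold change was 0.25, and Pecam1 on chromosome 11 (-0.47). With each chromosome's median removed, an alternative chosen after seeing the data, 5 of the 10 were lower relative to Cdh5 (median -0.73) and 3 higher relative to Pecam1 (median 0.42). The shares and medians over all genes were not computed after this removal. The 3.68% and 93.3% do not apply to these counts, which therefore say nothing particular to the 10 genes. For Sox17 the log2 ratio to Cdh5 was -3.88 and -3.98 in KO and -2.73 and -2.01 in WT. For Tek the log2 ratio to Pecam1 was -0.33 and -0.80 in KO and -2.61 and -1.73 in WT. The log2 fold changes of all 10 lay between that of Pecam1 (-2.03) and that of Cdh5 (0.05).

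**Figure D4:**
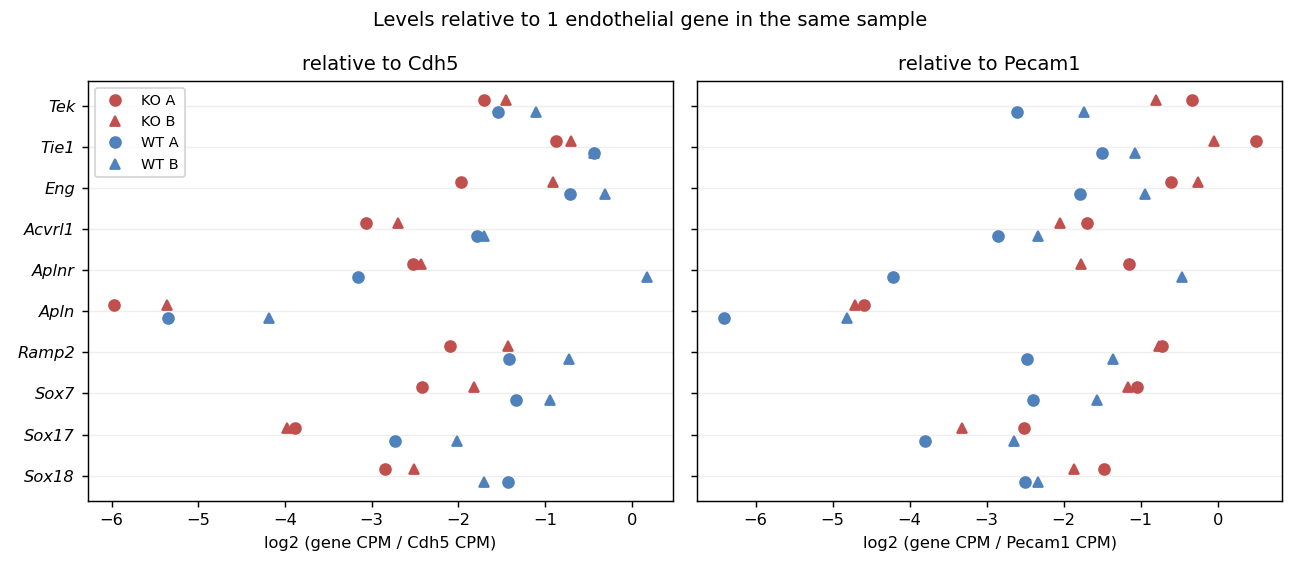
Log2 ratio of each gene's CPM to that of Cdh5 (left) and of Pecam1 (right) in the same sample, for KO (red) and WT (blue), with circles for samples A and triangles for samples B. Relative to Cdh5 the KO points of 8 genes lie left of the WT points, and relative to Pecam1 those of 8 genes lie right of them, as they do for 93.3% of all genes.

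Profiles over the 4 samples were compared by the root mean square difference of log2 CPM, each gene centred on its own mean. This was done among 11367 other genes with a mean of at least 5 CPM. Tek and Tie1 were each other's closest member (0.167), and Tie1 ranked 9th among all genes for Tek. Acvrl1 and Sox18 were also each other's closest (0.129), with Acvrl1 5th among all genes for Sox18. For Aplnr even the closest member, Ramp2, was at 0.962. The genes nearest to Tek were Shank3 (0.072) and the endothelial nitric oxide synthase gene Nos3 (0.115), and those nearest to Tie1 were the semaphorin receptor gene Plxnd1 (0.095) and Hmcn1 (0.111). Slc22a21 and Rgl1 were nearest to Eng, Icam2, an endothelial adhesion gene, and Nav3 to Acvrl1, and Wnk3 and Tiam1 to Ramp2. Rasgrp3 and Ppp1r16b were nearest to Sox7, Slc46a3 and the ETS factor gene Erg to Sox17, and Nrros and Icam2 to Sox18. Aplnr was nearest to Adamts3 (0.118) and Plxna2 (0.153). With 4 samples many genes can be this close, and nearness is a description.

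**Figure D5:**
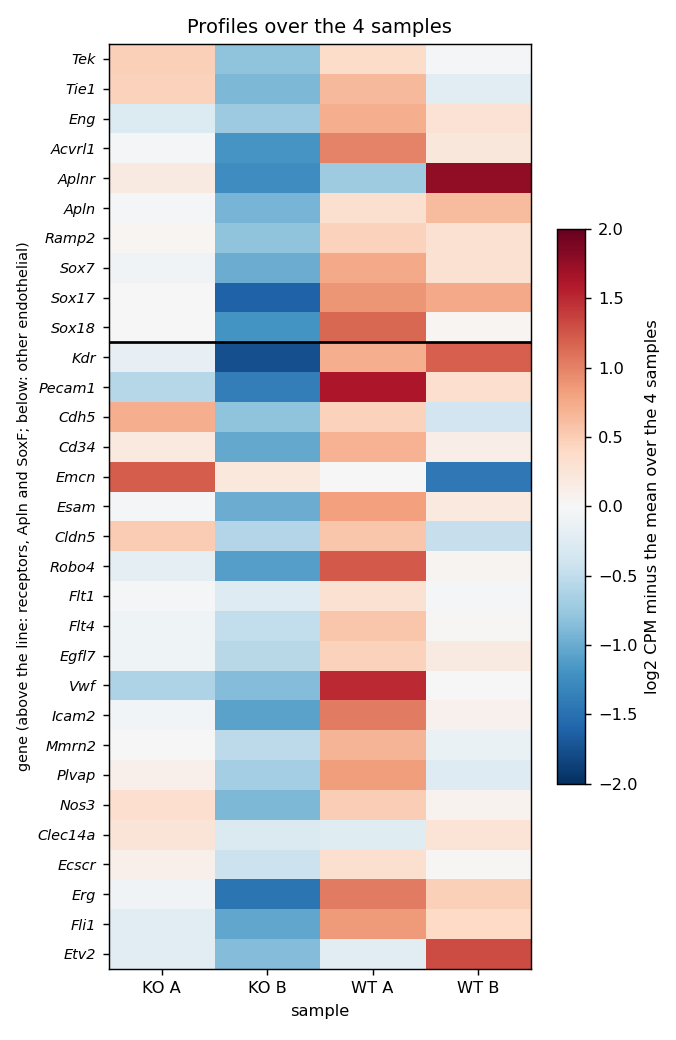
Log2 CPM minus the mean over the 4 samples (colour, red higher and blue lower, limited to 2 either way) for the 10 genes, above the line, and 21 other endothelial genes, below it. Columns are KO A, KO B, WT A and WT B. The KO B column is blue in nearly every row, and Aplnr has its deepest red in WT B.

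Lists of other genes around these receptors were counted in the same fits. Over all genes 0.185% passed by edgeR, 7.86% were lower and 7.61% higher at an edgeR p under 0.05 before adjustment, and DESeq2 called 3.66% lower and 3.69% higher. The lists hold 7 to 21 tested genes each, so a count of 0 or 1 does not set a list apart from these shares. Of 7 angiopoietin pathway genes tested, 0 passed by edgeR and limma-voom, 1 lower and 1 higher had an edgeR p under 0.05 before adjustment, and DESeq2 called 1 lower. The lower gene was Ptprb, which encodes the phosphatase VE-PTP that acts on Tie2. It stood at 16.4 and 5.58 CPM in KO and at 52.5 and 36.1 CPM in WT (log2 fold change -2.02, SE 0.57, edgeR adjusted p = 0.222, DESeq2 adjusted p = 0.00135). The ligand gene Angpt2 stood at 9.85 and 6.71 CPM in KO and at 8.37 and 7.51 CPM in WT (0.06, SE 0.28), and Foxo1, a factor that Tie2 signalling restrains, at 0.03 (SE 0.21). Dok2, a Tie2 adaptor named after its value was seen, was the gene on the higher side (1.10, SE 0.35, adjusted p = 0.229).

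Of 15 genes of the BMP9, BMP10, Alk1 and endoglin pathway tested, 0 passed by edgeR and limma-voom, 0 lower and 1 higher had an edgeR p under 0.05 before adjustment, and DESeq2 called 1 higher. This gene was Id2, a target of BMP signalling named after its value was seen, at 37.5 and 66.5 CPM in KO and 13.6 and 26.7 CPM in WT (log2 fold change 1.37, SE 0.45, edgeR adjusted p = 0.261). The median of the pathway was 0.00. No pathway gene had both KO samples below both WT samples, against 22.4% of all genes. For 2 of the 15 both KO samples lay above both WT samples, as for 3896 of all 16785 genes. The signal transducer genes Smad4 and Smad5 stood at 0.06 (SE 0.17) and 0.16 (SE 0.15) and the receptor gene Tgfbr1 at 0.16 (SE 0.16). The ligand genes were almost unread, with 2 and 0 reads of Gdf2, which encodes BMP9, in KO and 0 and 1 in WT. Bmp10 had 0 and 1 reads in KO and 4 and 6 in WT.

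Of 7 tested genes of the apelin and adrenomedullin pathways, 0 passed by edgeR, DESeq2 or limma-voom and 0 had an edgeR p under 0.05 before adjustment. Beside Calcrl, the most abundant were Ackr3, a scavenger receptor gene, at 8.60 and 9.17 CPM in KO and 4.57 and 53.3 CPM in WT (-1.71, SE 1.15), and Crcp (-0.13, SE 0.18). Ackr3 shared with Aplnr the high value in WT sample B. Of 15 other Sox genes tested, 0 passed by edgeR and limma-voom, 1 lower and 3 higher had an edgeR p under 0.05 before adjustment, and DESeq2 called 1 lower and 1 higher. Sox4 stood at 165 and 173 CPM in KO and at 103 and 137 CPM in WT (0.49, SE 0.17, adjusted p = 0.257), Sox11 at 0.54 (SE 0.35), and Sox2, a pluripotency and neural factor gene, at -0.50 (SE 0.74). The 3 on the higher side were Sox12 (0.66, SE 0.13), Sox3 (0.98, SE 0.28) and Sox4, and the 1 on the lower side was Sox21 (-1.36, SE 0.33), of which Sox3, Sox12 and Sox21 were named after their values were seen. Their median log2 fold change was -0.39, against -1.18 for the SoxF genes.

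Markers of other cell types also differed between the samples. The summed level of 16 tested endoderm genes was 1159.4 and 1608.2 CPM in KO and 1117.4 and 1302.3 CPM in WT, most of it from Sparc (0.34, SE 0.25), Epcam (0.73, SE 0.25) and Dab2 (0.60, SE 0.21), which other cells make too. The median log2 fold change of the list lay the other way, at -1.06, with 11 of the 16 below 0. By edgeR and limma-voom 0 of the 16 passed, 1 lower and 2 higher had an edgeR p under 0.05 before adjustment, and DESeq2 called 1 lower, Cxcr4. The endoderm genes that follow, beside the 3 above, were named after their values were seen. Cxcr4 stood at 7.34 and 4.64 CPM in KO and at 11.2 and 35.4 CPM in WT (-1.96, SE 0.63). Some genes of visceral or parietal endoderm were highest in WT sample A. Cubn stood at 5.79 and 4.64 CPM in KO and at 57.3 and 5.59 CPM in WT. Lama1 stood at 16.5 and 20.6 CPM in KO and at 97.1 and 28.3 CPM in WT. Afp, too low to test, had 8 and 7 reads in KO and 82 and 8 reads in WT. Others of the endoderm list were not: Dab2 and Sparc were highest in KO sample B, and Hnf4a in WT sample B. Ttr and Apoa1 were under 1.5 CPM in every sample. Gata4, Gata6 and Cer1 were highest in WT sample B, and Foxa2 stood at 4.75 and 1.52 CPM in KO and at 1.96 and 10.5 CPM in WT. The part of endoderm cells in the Sox7 and Sox17 values was not tested. The 10 pluripotency genes summed to 867.4 and 1108.7 CPM in KO and 1955.7 and 504.8 CPM in WT, with Dppa5a (-0.32, SE 1.03), Nanog (-0.65, SE 0.39) and Pou5f1 (0.50, SE 0.61) the most abundant. By edgeR and limma-voom 0 passed, 2 lower and 0 higher had an edgeR p under 0.05 before adjustment, and DESeq2 called 2 lower.

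The 10 smooth muscle and cardiac genes summed to 1195.8 and 2216.8 CPM in KO and 674.3 and 839.4 CPM in WT, highest in KO sample B. Most of each sum came from the smooth muscle genes Acta2 and Tagln. By edgeR and limma-voom 0 passed, 0 lower and 5 higher had an edgeR p under 0.05 before adjustment, and DESeq2 called 5 higher, against 7.61% and 3.69% of all genes. The 5 were the same in both: Acta2 at 1.08 (SE 0.35), Tagln at 1.69 (SE 0.42), Des at 1.38 (SE 0.15), and Myh11 and Cnn1, named after their values were seen. The cardiac gene Myl7 lay the other way (-3.20, SE 1.36), and Tnnt2, Nkx2-5, Actc1 and Tbx5 were not called. Of 10 tested blood genes, Itga2b (-4.17, SE 0.20) and Gfi1b (-4.61, SE 0.35) fell in KO by edgeR (adjusted p = 0.0102 and 0.0476). Hba-x, an embryonic globin gene, also fell, at 0.0432 and 0.078 CPM in KO and 6.57 and 7.13 CPM in WT (edgeR adjusted p = 0.0378). DESeq2 called 7 of the 10 lower, limma-voom 1, and Hbb-bh1 was at 0 reads in KO. Runx1 stood at -1.01 (SE 0.39) and Myb at -0.27 (SE 0.26). The blood genes summed to 36.2 and 31.8 CPM in KO and 134.3 and 159.0 CPM in WT, nearly level between KO A and KO B. The part of these cell types in the values of the 10 genes was not tested.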

How the data were processed

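The authors deposited unnormalised read counts for each Ensembl gene in 8 RNA-seq libraries of Flk1-sorted KO and WT cells, with 1 transcript length per gene, per the file headers. The submitters' processing notes name the build mm9 and DESeq. For the aligner, counting tool, strand setting and annotation, names were not given in the sources used here. A deposited ChIP peak list is in mm9 and was not used here, since the gene tables are of GRCm38.p6.

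Pairs of libraries were compared gene by gene with a chi-square statistic, using genes whose reads in the pair summed to 20 or more. The 4 pairs summed had means of 1.065 to 1.101, other pairs within a genotype 12.764 to 28.465, and pairs across genotypes 30.85 to 45.22. Total counts were 11258493 to 13483294 per library. Low counts were removed with filterByExpr, and the rest were TMM-scaled and tested in edgeR 4.0.16 (quasi-likelihood, robust) under R 4.3.3, with Benjamini-Hochberg adjustment over all 16785 genes and a threshold of 0.05. SE is the log2 fold change over the square root of F, and 95% intervals use the fit's degrees of freedom. Alternatives used DESeq2 1.42.0 and limma 3.58.1, other scalings, filters, a replicate block, and leaving out libraries or samples. Symbols were matched for 20362 genes, and lists of 4 pathways and 5 cell types (123 entries, 122 in the table) were used. The 10 genes and the lists were chosen with earlier results of these data known. The text names all 10, each list's genes past the test and up to 3 most abundant others, and the 2 nearest profiles per member (log2 CPM, prior count 2). Apln, under 5 CPM on average, got no nearest profile.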

Additional observations from a re-analysis of the deposited data

How the results depend on the processing

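All 10 genes kept a log2 fold change below 0 under every alternative except the omission of a whole sample: over those omissions Tek ranged from -0.99 to 0.29, Tie1 from -1.17 to 0.18 and Aplnr from -2.25 to 0.35. Such an omission leaves 1 sample in a genotype, which is assumed to vary like the other genotype. The 31 genes called became 151 without a filter on low counts, 5 with at least 1 CPM in at least 2 samples, 1140 by DESeq2 and 3 by limma-voom. Leaving out a library or a sample gave 0 to 1674. Of the 10 genes, 0 were called; DESeq2 called 1 (Eng), and leaving out a library or a sample gave 0 to 1. Fitting the 8 libraries separately called 3860 genes and 6 of the 10, but treats libraries within sampling noise of each other as replicates. A replicate block of the sample letter called 5 genes and 0 of the 10 on summed samples, and 5196 genes and 8 of the 10 on separate libraries, where 15.8% of all genes were called lower. The labels do not say that A or B pairs the genotypes, and the deviations of KO A and WT A from their genotype means correlated at -0.081 over 16785 genes. The causes of these shifts were not tested. With 2 samples per genotype the intervals of 8 of the 10 genes included 0, and Apln, with 39 to 123 reads per sample, was the member with the fewest reads.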
